A study of Mus musculus with 20 samples.

Results

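The genes described here are those of the mouse ubiquitin-conjugating (E2) enzymes, taken as every row of the expression table whose gene symbol begins with Ube2 followed by a letter. The rule found 35 genes among 23235 rows, and 34 of them were among the 12956 genes tested, which needed at least 1 FPKM in at least 2 libraries. FPKM is a fragment count scaled to transcript length and to the size of the library, so levels can be set beside each other between genes. Ube2ql1, the member not tested, was at or below 0.0322 FPKM in all 12 libraries. Ubiquitin is passed from an E1 activating enzyme to an E2 and from there, with the help of an E3 ligase, to a protein, where it can mark that protein for destruction or change its function. The E2 largely sets the kind of chain that is built, and a few members of the family carry a ubiquitin-like modifier such as NEDD8 in place of ubiquitin. In male meiosis the pathway is known for histone ubiquitination on the silenced X and Y chromosomes, for the anaphase-promoting complex (APC/C) that drives both divisions, and for the turnover of proteins on the chromosome axes.

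The study compared spermatocytes of wild-type (WT) mice with spermatocytes lacking Cxxc1, which encodes the CpG-binding subunit of the SETD1 complex that trimethylates histone H3 at lysine 4. Flow cytometry was used to sort cells of 3 stages from the testes of adult C57BL/6 males: pachytene and diplotene, both in the first meiotic prophase, and meiosis II. Each stage and genotype had 2 RNA libraries, and each library was made by the Smart-seq2 method from 500 cells. The age beyond adult, the driver and extent of the Cxxc1 deletion and the number of mice behind a library are not given in the sources used here. The p-values therefore measure the spread between libraries, which may be technical. In these bulk samples fewer cells of a type and less RNA per cell cannot be told apart.

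Cxxc1 itself was lower in both null libraries than in both WT libraries at every stage, at 9.19 and 9.57 FPKM against 11.7 and 17.3 in pachytene, 9.57 and 8.29 against 13.7 and 17.6 in diplotene, and 3.10 and 2.02 against 12.5 and 12.8 in meiosis II. Averaged over stages the difference was -1.08 ± 0.15 on the log2(FPKM + 1) scale (± SE, limma, adjusted p = 0.0017). In the same fit it was -1.96 in meiosis II (adjusted p = 0.0024). It did not pass in pachytene (-0.56, adjusted p = 0.47) or diplotene (-0.74, 0.22). The transcript was thus still present in every null library. The spermatocyte markers (10 of 10 tabulated) summed to 8131 to 16045 FPKM in all libraries. The 10 spermatid markers summed to 7702 to 10734 FPKM in WT and to 2521 to 4826 FPKM in null meiosis II cells, and to 440 to 2287 FPKM in the earlier stages. Gene by gene, 0 of these 10 passed the genotype test in meiosis II (limma adjusted p under 0.05), where 10.5% of all tested genes did. In that contrast 3 of the 10 were higher in null cells, and the median log2 difference of the 10 was -0.39. Averaged over stages 3 of the 10 passed, 2 higher and 1 lower in null cells. Of all tested genes 16.7% passed in that contrast, 11.5% higher and 5.13% lower. Of the somatic lists, 9 Sertoli markers summed to 216 to 321 FPKM in meiosis II against 3.08 to 27.1 FPKM before it, with Amh and Gata4 under 1 FPKM in every library. The 7 Leydig markers summed to 47.5 to 270 FPKM in meiosis II (WT 47.5 to 270, null 102 to 188) and to 9.25 to 68.4 FPKM before it, with Lhcgr under 1 FPKM throughout. The part of these other cell types in the E2 differences that involve meiosis II was not tested. Spermatogonial markers (8 genes, 6.61 to 37.6 FPKM) and peritubular, endothelial and blood markers (10 genes, 2 to 14 FPKM, 7 of them under 1 FPKM in every library) were low throughout. A pair of libraries stood apart from their groups. Over the 12956 tested genes, null diplotene replicate 2 correlated more with the WT meiosis II mean (Pearson r = 0.891) than the other 3 diplotene libraries did (0.834 to 0.849), and WT pachytene replicate 2 correlated more with the WT diplotene mean (0.955) than the other 3 pachytene libraries did (0.914 to 0.930).

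The E2 genes spanned a wide range of levels. Together they made up 0.289% to 0.366% of the summed FPKM of a library, and 30 to 33 of the 35 reached 1 FPKM in any given library. Ube2s, Ube2d3 and Ube2l3 were at or above 100 FPKM in all 12 libraries, and 21 members were at or above 10 FPKM in all 12. Ube2s encodes the APC/C-associated E2 that extends lysine-11 chains, and it ranked first among the members in all 6 groups. Ube2t, which encodes the E2 of the Fanconi anaemia DNA repair pathway, ranked second in every pachytene and diplotene group, sixth in WT meiosis II and position 13 in null meiosis II. Only Ube2z, Ube2cbp, Ube2d1 and Ube2ql1 stayed under 10 FPKM in all 12 libraries. The 5 highest members held between 56.9% and 62.8% of the summed E2 level in each group. Among members with no group mean of 0, the group means of a member differed by as little as 1.48-fold, for Ube2h, and by as much as 75.4-fold for Ube2dnl, 42.0-fold for Ube2a and 18.9-fold for Ube2e2.

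**Figure D1:**
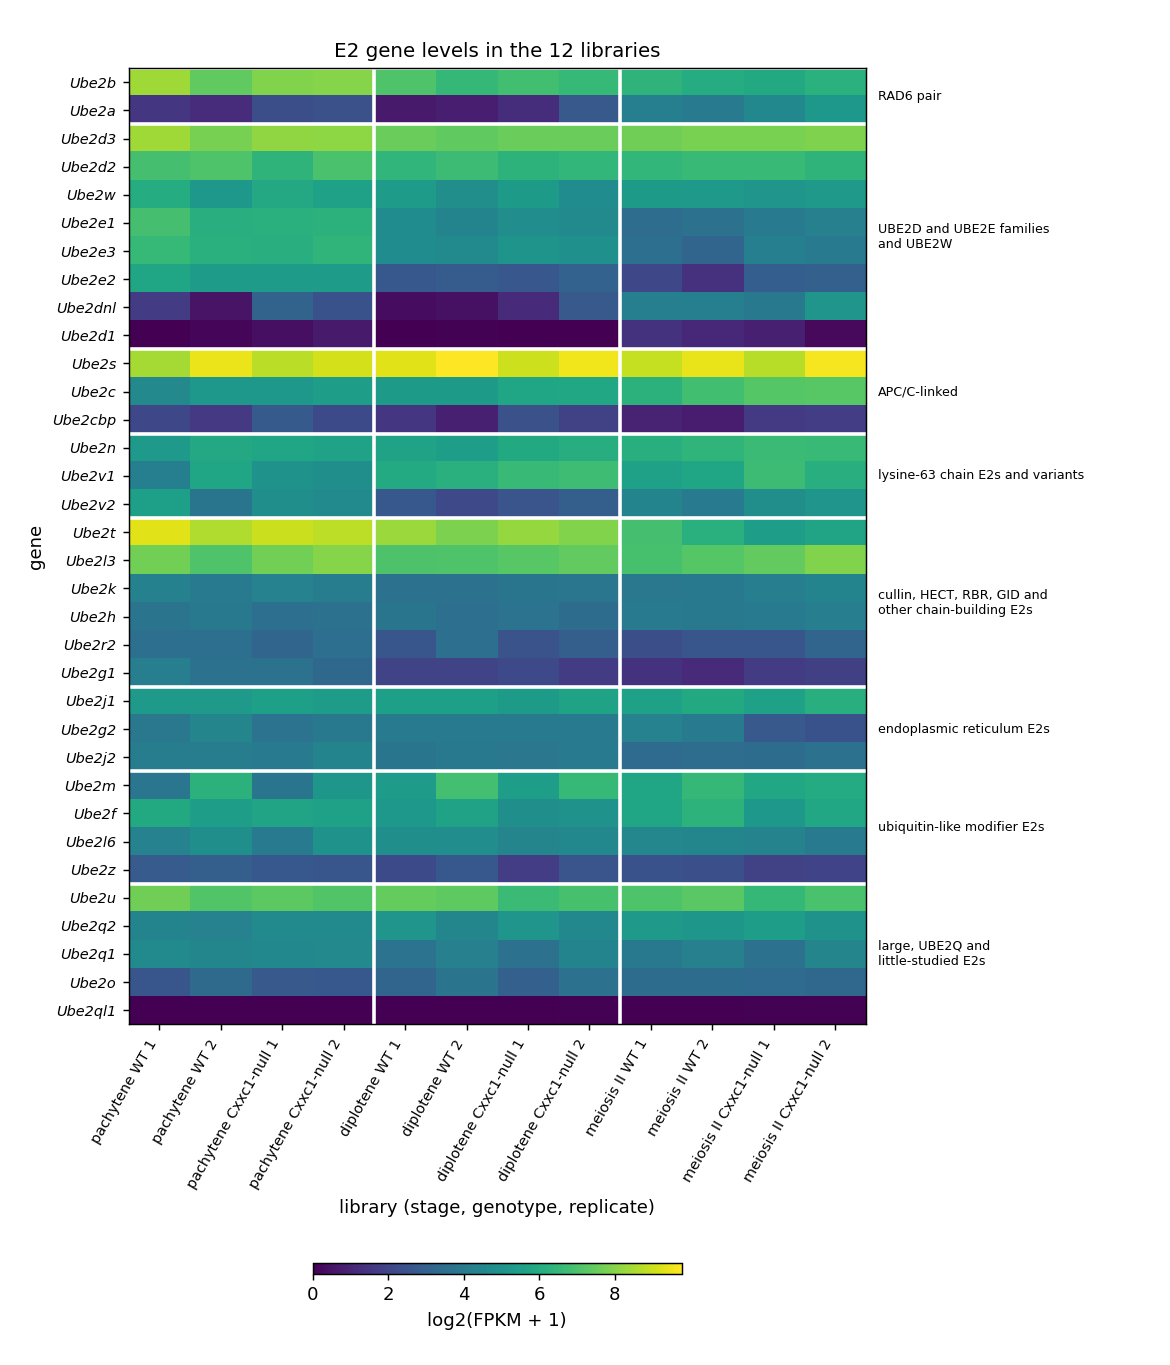
Heat map of the level of 34 of the 35 E2 genes (rows, ordered by role) in each of the 12 RNA libraries (columns, 2 per stage and genotype), coloured by log2(FPKM + 1). The columns show Ube2s high throughout, the Ube2e genes falling from pachytene onward, and Ube2a and Ube2dnl lower before meiosis II than in it.

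Few E2 genes differed between the genotypes at a single stage. In pachytene 0 of 34 passed the limma test (Benjamini-Hochberg adjusted p under 0.05 over all 12956 genes), where 0.355% of all tested genes passed. An unadjusted p under 0.05 was found there for 3 of the 34 members and for 1388 of the 12956 genes. In diplotene 0 of 34 passed, where 0.787% of all tested genes did. The unadjusted p was under 0.05 for 4 of the 34 members and for 1747 of the 12956 genes. In meiosis II 2 of 34 (5.88%) passed, against 10.5% of all tested genes: Ube2e2 was higher (all tested genes, 6.14% higher) and Ube2g2 lower (all tested genes, 4.35% lower) in null cells. When the difference was averaged over the 3 stages 5 of 34 (14.7%) passed, against 16.7% of all tested genes. Of these Ube2a, Ube2dnl, Ube2cbp and Ube2c were higher in null cells (all tested genes, 11.5% higher) and Ube2g2 was lower (all tested genes, 5.13% lower). The members' median differences of 0.01, 0.04, 0.12 and 0.04 in the 4 contrasts lay beside medians of 0.04, 0.09, 0.02 and 0.05 over all tested genes. In none of these contrasts did the share of members called exceed that of all genes. The test of whether the genotype difference changed with stage called 0 members (0.054% of all tested genes), with 3 at an unadjusted p under 0.05. With same-numbered libraries joined over stages, 0 members passed in the averaged contrast, with 5 at an unadjusted p under 0.05, and a fit on the meiosis II libraries alone likewise called 0, with 11 at an unadjusted p under 0.05.

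Counting libraries without a test, null and WT values did not overlap for 12 members in pachytene (8 with null higher; 37.4% of all tested genes did not overlap), 14 in diplotene (11 with null higher; 45.6%) and 23 in meiosis II (16 with null higher; 56.5%). These shares of all genes cover both directions and were not split. Of all tested genes 54.3%, 60.6% and 51.6% had a positive null minus WT difference at the same stages, whether overlapping or not. Both null libraries were above both WT libraries at all 3 stages for 4 members, Ube2a, Ube2cbp and Ube2l3 among them, where 8.24% of all tested genes had that pattern. The opposite pattern was found for 0 members, where 3.91% of all tested genes had it.

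**Figure D2:**
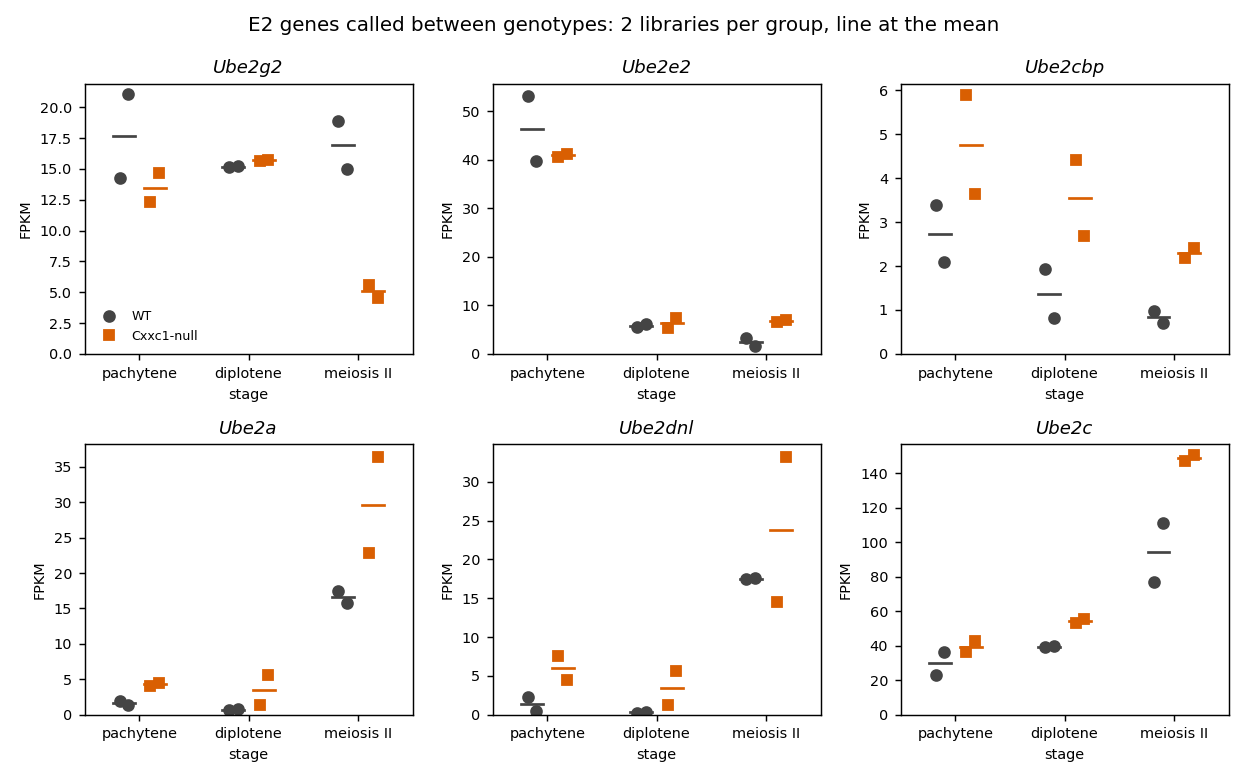
FPKM of the E2 genes that passed the test in a genotype contrast (1 panel each) in the 12 RNA libraries, with points for the 2 libraries of each stage and genotype and a line at their mean. Ube2g2 in null meiosis II cells lies at 4.54 and 5.59 FPKM, below every other library, and Ube2cbp lies higher in null than in WT libraries at each stage.

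The RAD6 pair, Ube2a and Ube2b, encodes nearly identical enzymes that ubiquitinate histone H2B with RNF20 and RNF40, a mark that promotes lysine-4 methylation of histone H3, and male mice lacking Ube2b are infertile. Ube2a is on the X chromosome and Ube2b is autosomal. In pachytene Ube2a was at 1.92 and 1.38 FPKM in WT and 4.11 and 4.43 FPKM in null libraries. In diplotene it was at 0.636 and 0.772 FPKM in WT and 1.40 and 5.65 FPKM in null libraries, and in meiosis II at 17.4 and 15.7 FPKM against 22.8 and 36.4 FPKM. The null libraries were the higher at each stage with no overlap, and the averaged difference was 1.00 ± 0.24 (log2, ± SE; limma adjusted p = 0.0195). Stage by stage it did not pass, at 1.00 ± 0.41 in pachytene (adjusted p = 0.41), 1.23 ± 0.41 in diplotene (0.21) and 0.76 ± 0.41 in meiosis II (0.27). Without both libraries that stood apart the averaged difference was 0.70 (adjusted p = 0.037). The call was lost without null pachytene replicate 2 (0.054), WT meiosis II replicate 2 (0.051) or null meiosis II replicate 2 (0.059).

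Ube2b was at 330.1 and 166 FPKM in WT and 239 and 256 FPKM in null pachytene, at 136 and 91.3 against 113 and 91.7 FPKM in diplotene, and at 81.3 and 65.9 against 60.6 and 74.3 FPKM in meiosis II. The genotypes overlapped at every stage, and the averaged difference was -0.06 ± 0.19 (adjusted p = 0.86).

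Of the UBE2D, UBE2E and UBE2W genes, whose products work with a wide range of RING ligases or, for UBE2W, modify protein N-termini, Ube2dnl and Ube2e2 passed a genotype test. Ube2dnl, a UBE2D-like gene on the X chromosome (Ube2dnl1 in RefSeq, matched by synonym), was at 2.23 and 0.448 FPKM in WT and 7.58 and 4.52 FPKM in null pachytene. It was at 0.264 and 0.368 against 1.22 and 5.61 FPKM in diplotene, and at 17.4 and 17.6 against 14.5 and 33.2 FPKM in meiosis II. The genotypes were thus apart in pachytene and diplotene and overlapped in meiosis II. The averaged difference was 1.18 ± 0.32 (adjusted p = 0.034), with 1.67 ± 0.56 in pachytene (0.30), 1.54 ± 0.56 in diplotene (0.25) and 0.31 ± 0.56 in meiosis II (0.78). Without both libraries that stood apart it was 0.72 and no longer passed (adjusted p = 0.10), and the call was lost under 12 of 22 alternatives.

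Both Ube2a and Ube2dnl share their chromosome with a wider difference. Of 407 tested X-linked genes 171 (42%) were called higher and 4 lower in null cells on average over stages, with a median difference of 0.41, against 1310 of 12445 autosomal genes (10.5%) called higher and a median of 0.04. In pachytene 88.7% of the X-linked genes had a positive difference (median 0.43), in diplotene 84.8% (median 0.34) and in meiosis II 72.5% (median 0.45). The averaged differences of Ube2a and Ube2dnl lay above the X-linked median.

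Upstream sequences of Ube2a, Ube2dnl and Ube2cbp are shown because these genes had the largest averaged rises. CXXC1 is known to bind unmethylated CpG, but its binding and DNA methylation at these sequences were not measured here. Any link between their CG content and the rises was not tested. Each is the 250 bases before the annotated start in RefSeq's GRCm38.p6 assembly, 5′ to 3′ on the gene's strand, with CG dinucleotides in capitals: Ube2a at chrX:36874045-36874294 (plus strand, 15 CG), Ube2dnl at chrX:114904762-114905011 (plus strand, 4 CG) and Ube2cbp at chr9:86464917-86465166 (minus strand, 16 CG).
Ube2a: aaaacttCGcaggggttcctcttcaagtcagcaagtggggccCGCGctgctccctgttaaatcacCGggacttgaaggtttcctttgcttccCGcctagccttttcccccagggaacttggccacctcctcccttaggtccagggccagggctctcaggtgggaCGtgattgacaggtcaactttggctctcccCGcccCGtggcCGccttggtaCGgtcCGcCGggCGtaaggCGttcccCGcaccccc
Ube2dnl: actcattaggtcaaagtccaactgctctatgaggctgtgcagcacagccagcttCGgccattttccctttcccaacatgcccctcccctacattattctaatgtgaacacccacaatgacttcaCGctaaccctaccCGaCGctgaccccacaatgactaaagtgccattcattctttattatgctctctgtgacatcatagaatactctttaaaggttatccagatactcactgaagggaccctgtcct
Ube2cbp: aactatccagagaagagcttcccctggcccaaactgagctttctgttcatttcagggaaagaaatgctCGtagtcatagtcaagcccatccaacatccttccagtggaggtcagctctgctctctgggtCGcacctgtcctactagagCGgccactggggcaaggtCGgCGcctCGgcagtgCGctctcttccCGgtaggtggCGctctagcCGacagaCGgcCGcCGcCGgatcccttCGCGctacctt
The Ube2a and Ube2cbp sequences hold their CG mostly toward the start site, and that of Ube2dnl is poor in CG throughout. Over the E2 genes, 28 of 35 had an entry, with 39 windows of 300 bases (250 before to 50 after the start). These windows held a median of 30 CG (4 to 55), against 7 over all 32851 windows of 27025 genes, and 33 of 39 held at least 20, against 26.5% of all windows. That background includes genes that were not tested here, and windows of the tested genes alone were not counted. The window of Ube2dnl and 1 window of Ube2h held the fewest, with 4 CG each. The palindromic CRE motif TGACGTCA was in 2 member windows, 1 of Ube2b and 1 of Ube2h, and in 1.79% of all windows. H3K4me3 at these windows was not analysed here.

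Ube2e2, an autosomal UBE2E gene, was at 3.31 and 1.60 FPKM in WT and 6.60 and 6.96 FPKM in null meiosis II. The null libraries were the higher there, with a difference of 1.22 ± 0.28 (adjusted p = 0.023). In pachytene the values were 53.1 and 39.7 FPKM in WT and 40.6 and 41.2 FPKM in null cells, and in diplotene 5.48 and 6.21 against 5.23 and 7.39 FPKM, so that the genotypes overlapped at both stages. The test of a change with stage gave adjusted p = 0.36, and the meiosis II call was lost without WT replicate 2 (0.85, adjusted p = 0.14), null replicate 1 (1.25, 0.085) or null replicate 2 (1.18, 0.12) of that stage. Its relatives Ube2e1 and Ube2e3 were also higher in both null libraries of meiosis II than in both WT libraries, at 15.4 and 17.9 against 10.4 and 11.5 FPKM for Ube2e1 and 17.5 and 15.4 against 11 and 8.10 FPKM for Ube2e3 (0.74 ± 0.22, adjusted p = 0.057), but neither passed the test.

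**Figure D3:**
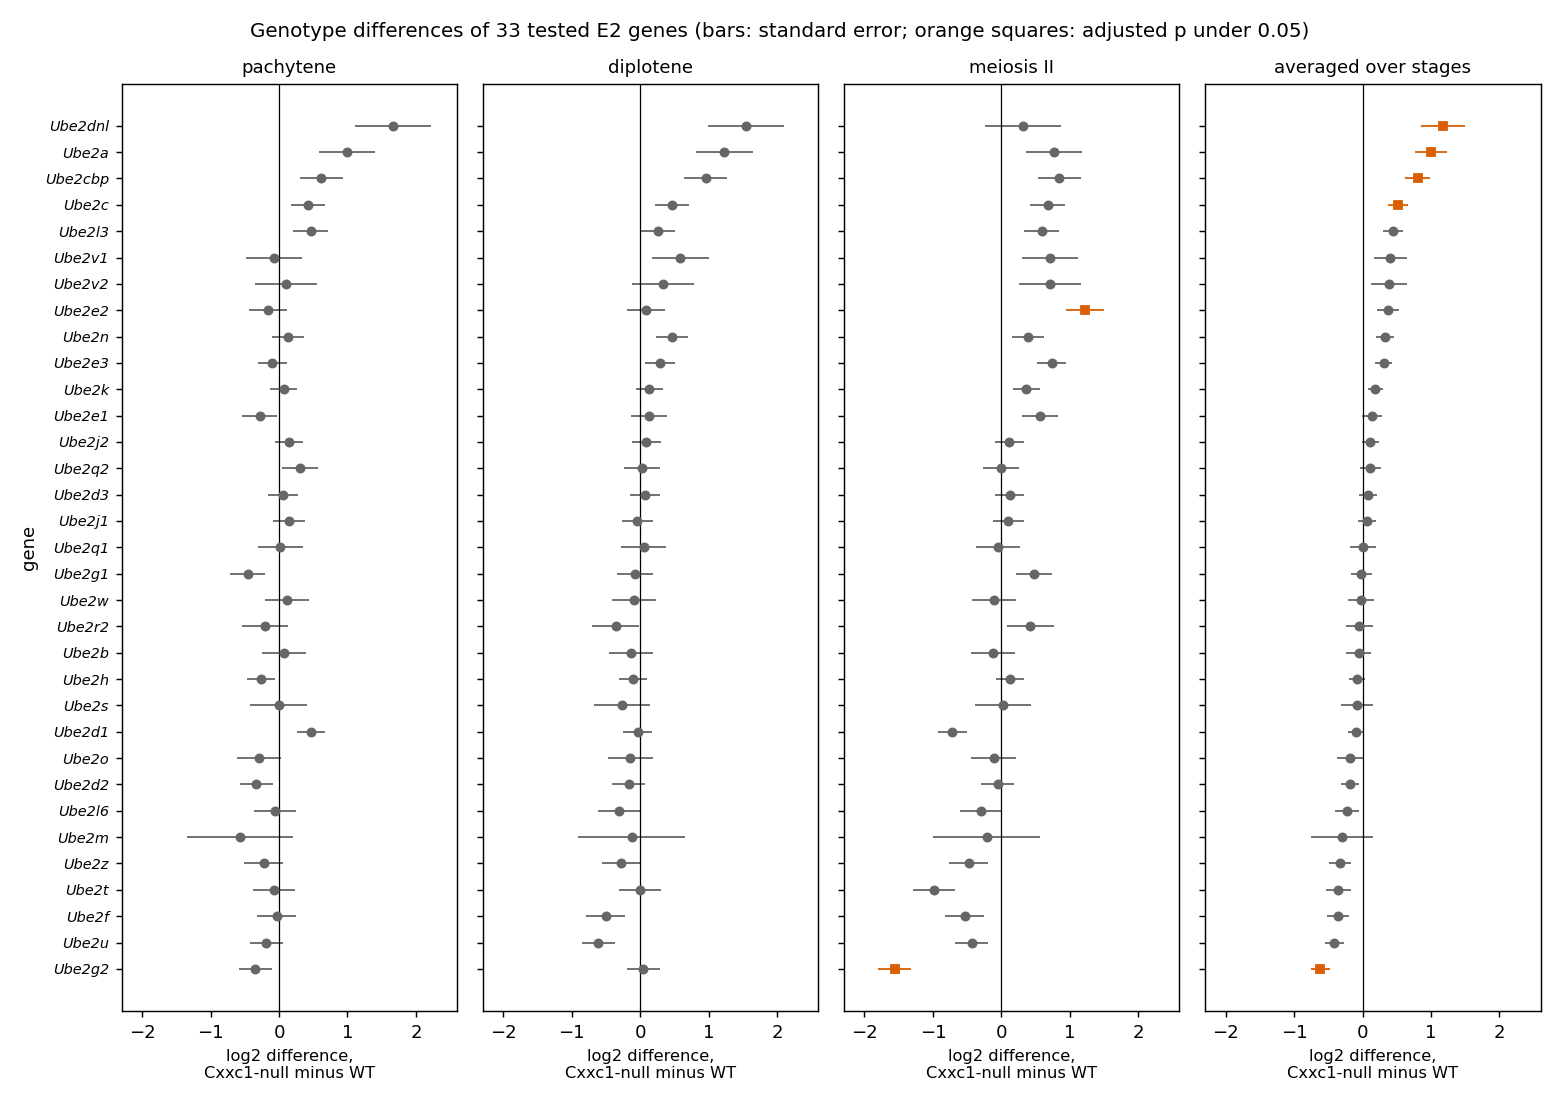
Log2 difference (null minus WT, on log2(FPKM + 1)) of 33 of the 34 tested E2 genes in pachytene, diplotene, meiosis II and averaged over stages (1 panel each, genes ordered by the averaged difference), with bars of 1 SE from the limma fit and orange squares for called genes. In the averaged panel Ube2dnl (1.18), Ube2a (1.00) and Ube2cbp (0.81) lie highest and Ube2g2 (-0.62) lowest, and in the meiosis II panel only Ube2e2 and Ube2g2 are orange.

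Among the APC/C-linked genes Ube2c and Ube2cbp passed and Ube2s did not. Ube2c encodes the E2 that begins ubiquitin chains on APC/C substrates such as cyclin B. It was at 23.0 and 36.4 FPKM in WT and 36.2 and 42.6 FPKM in null pachytene, at 39.0 and 39.5 against 53.2 and 55.6 FPKM in diplotene, and at 77.2 and 111 against 147 and 150.3 FPKM in meiosis II. The genotypes were apart in diplotene and meiosis II and overlapped in pachytene. The averaged difference was 0.52 ± 0.14 (adjusted p = 0.036), no stage passed by itself (adjusted p = 0.12 to 0.60), and the call was lost under 11 of 22 alternatives.

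Ube2cbp encodes a protein that binds UBE2C and acts as an E3, so the symbol rule takes in a gene that is not an E2. It was at 3.39 and 2.08 FPKM in WT and 5.89 and 3.63 FPKM in null pachytene, at 1.93 and 0.814 against 4.42 and 2.68 FPKM in diplotene, and at 0.972 and 0.699 against 2.18 and 2.41 FPKM in meiosis II. Null libraries were the higher at each stage, and the averaged difference was 0.81 ± 0.18 (adjusted p = 0.016). Since the values are low, the added 1 FPKM makes these log2 differences smaller than the ratios of the FPKM values.

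Ube2s, the highest member, was at 347 and 713 FPKM in WT and 431 and 569 FPKM in null pachytene, at 645 and 875 against 519 and 748 FPKM in diplotene, and at 476 and 702 against 427 and 807 FPKM in meiosis II. The genotypes overlapped at each stage, replicate 2 was the higher library in every group, and the averaged difference was -0.08 ± 0.24 (adjusted p = 0.84).

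Ube2g2 was the only endoplasmic reticulum E2 gene that passed a genotype test. Its product works with ligases that clear misfolded proteins from the endoplasmic reticulum. In meiosis II it was at 18.9 and 15.0 FPKM in WT and at 5.59 and 4.54 FPKM in null libraries, or 29.9% of the WT mean (-1.56 ± 0.24, adjusted p = 0.0043). In pachytene it was at 14.2 and 21.1 FPKM in WT and 12.3 and 14.7 FPKM in null libraries (-0.35 ± 0.24, 0.67), and in diplotene at 15.1 and 15.2 against 15.7 and 15.7 FPKM (0.05 ± 0.24, 0.97). The null values were well below WT in meiosis II, overlapped with WT in pachytene and were slightly above WT in diplotene. The test of a change with stage did not pass (adjusted p = 0.25). The averaged difference was -0.62 ± 0.14 (adjusted p = 0.015), and -0.53 without both libraries that stood apart (0.054). In the fit on the meiosis II libraries alone the adjusted p was 0.053. Ube2j1, which encodes a membrane-bound E2 needed for normal sperm formation, was at 38.5 and 38.1 FPKM in WT and 44.2 and 40.7 FPKM in null pachytene, at 45.3 and 44.4 against 39.3 and 48.5 FPKM in diplotene and at 46.9 and 60.6 against 47.2 and 69.6 FPKM in meiosis II. Its averaged difference was 0.07 ± 0.13 (adjusted p = 0.76), and the genotypes overlapped in diplotene and meiosis II.

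The genes Ube2m, Ube2f, Ube2l6 and Ube2z, for E2 enzymes that carry or can carry ubiquitin-like modifiers, passed no genotype or stage test. Ube2m and Ube2f are the E2 genes for NEDD8, and Ube2m varied widely within groups, at 13.4 and 77.4 FPKM in the WT pachytene libraries.

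Ube2n, whose product builds lysine-63 chains with the catalytically inactive UBE2V1 or UBE2V2, was at 36.9 and 58.8 FPKM in WT and 53.6 and 48.9 FPKM in null pachytene, at 48.2 and 43.1 against 60.6 and 66.5 FPKM in diplotene, and at 68.9 and 82.5 against 102 and 96.8 FPKM in meiosis II. The genotypes were apart in diplotene and meiosis II, with an averaged difference of 0.33 ± 0.13 (adjusted p = 0.12), which passed only without WT pachytene replicate 2. Ube2l3, which serves HECT and RBR ligases, was higher in both null libraries at each stage and did not pass (0.44 ± 0.15, adjusted p = 0.067). Ube2u, a little-studied member, was at 203 and 137 FPKM in WT and 157 and 137 FPKM in null pachytene, where the genotypes overlapped. It was at 175 and 164 against 101 and 121 FPKM in diplotene and 135 and 155 against 90.4 and 126 FPKM in meiosis II. Null libraries were the lower at these later stages, and the averaged difference did not pass (-0.41 ± 0.14, adjusted p = 0.074). Ube2l3 and Ube2u were named here after their values were seen.

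More E2 genes passed in the stage contrasts than in the genotype contrasts. From pachytene to diplotene in WT cells 6 of 34 (17.6%) fell and 0 rose, where 26.5% of all tested genes changed (17.4% lower, 9.08% higher). From diplotene to meiosis II in WT cells 11 (32.4%) changed, 6 up and 5 down, where 45% of all tested genes changed (26.1% higher, 18.9% lower). Ube2d1, 1 of the 6 that rose, reached 1 FPKM only in the WT meiosis II libraries. In null cells 7 (20.6%) changed from pachytene to diplotene, 1 up and 6 down, where 29.3% of all tested genes did, and 8 (23.5%) from diplotene to meiosis II, 5 up and 3 down, where 44.1% did (25.3% higher, 18.8% lower). The libraries of the earlier and later stage did not overlap for 22 members in the first WT step (63.1% of all tested genes) and 24 in the second (74%), and in null cells for 23 (69.6%) and 19 (73.4%). The members' medians in WT were -0.37 and 0.01, beside -0.11 and 0.02 over all tested genes. Bringing all libraries to a common median shifts the median of all genes by 0.20 in the first WT step and -0.30 in the second, and the stage differences are relative to that. In all, 20 members passed no stage contrast in either genotype, and the share of all tested genes that did so was not computed. A fit on the 4 WT pachytene and diplotene libraries alone called 0 members and 3 genes of all tested. In that fit 6 members had an unadjusted p under 0.05, and the share of all tested genes that did was not computed. The pachytene to diplotene count in WT ranged from 4, without WT diplotene replicate 2, to 11, without WT pachytene replicate 2, and that in null cells was 2 without null pachytene replicate 2.

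**Figure D4:**
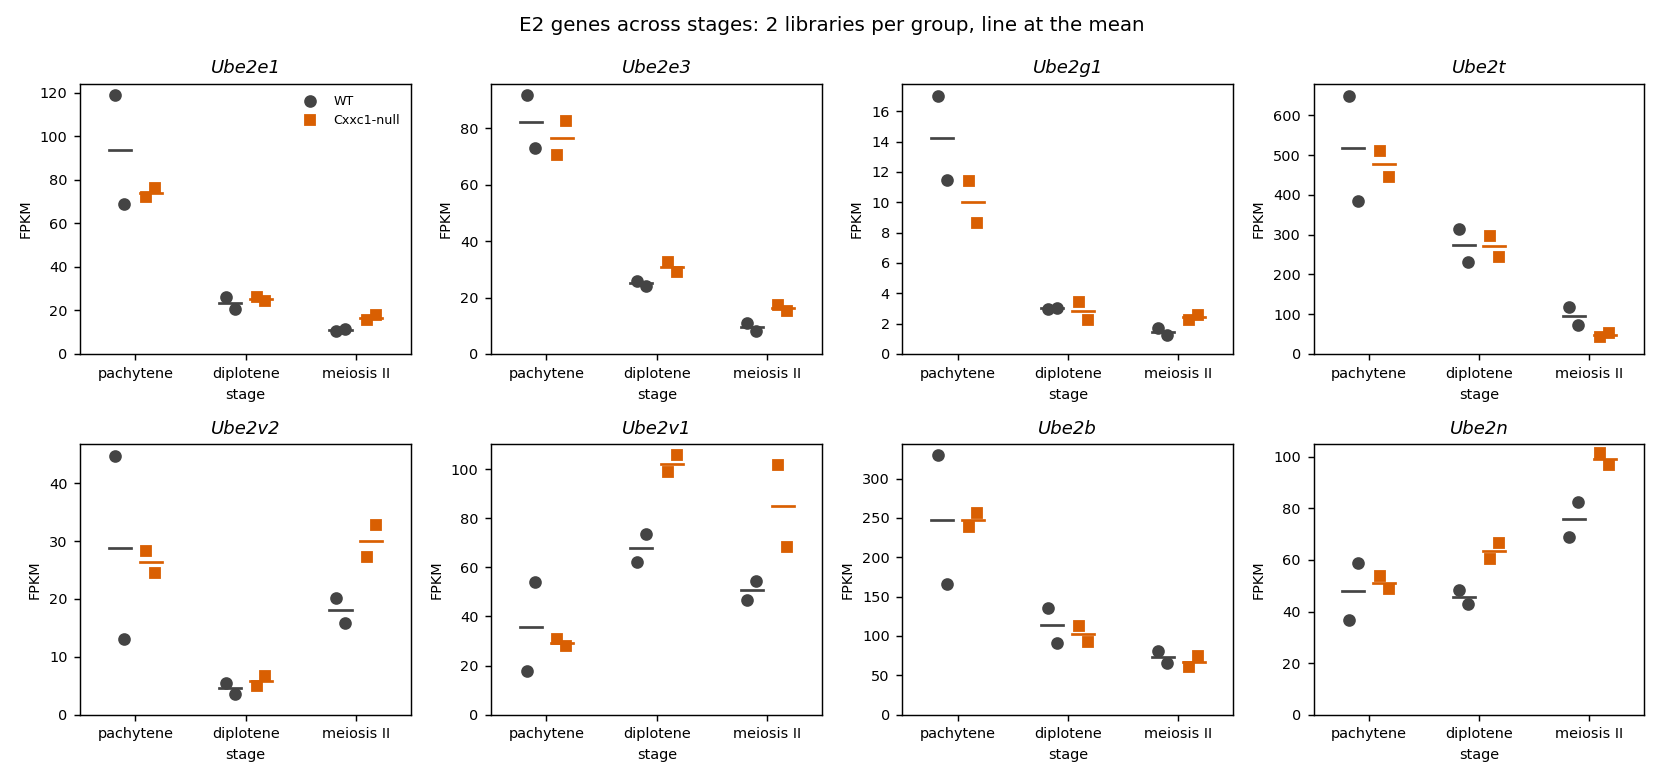
FPKM (vertical axis, from 0) of 8 E2 genes in pachytene, diplotene and meiosis II (1 panel each), with a point for each of the 2 libraries of a stage and genotype and a line at their mean. Ube2e1, Ube2e3, Ube2g1 and Ube2t are lower at each later stage, Ube2v2 is lowest in diplotene and Ube2v1 highest there.

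The UBE2E genes fell at both steps through WT meiosis. Ube2e2 went from 53.1 and 39.7 FPKM in pachytene to 5.48 and 6.21 in diplotene and 3.31 and 1.60 in meiosis II, a change of -2.78 ± 0.28 (adjusted p = 0.00067) and then -1.03 ± 0.28 (0.012). Ube2e1 went from 119 and 68.8 FPKM to 26.1 and 20.4 and then 10.4 and 11.5 (-1.93 ± 0.26, adjusted p = 0.0014; -1.01 ± 0.26, 0.0093). Ube2e3 went from 91.7 and 73.0 FPKM to 26.0 and 24.0 and then 11 and 8.10 (-1.67 ± 0.22, adjusted p = 0.0011; -1.32 ± 0.22, 0.00069). The second fall lost its call for Ube2e2 without WT diplotene replicate 2 (-0.95, adjusted p = 0.067) or WT meiosis II replicate 2 (-0.66, 0.11), and for Ube2e1 without WT diplotene replicate 1 (-0.84, 0.073) or WT meiosis II replicate 1 (-0.94, 0.057). No WT library of a later stage reached the level of an earlier one for these 3 genes. In null cells all 3 fell from pachytene to diplotene as well, whereas from diplotene to meiosis II the change was -0.58 for Ube2e1 (adjusted p = 0.099), 0.10 for Ube2e2 (0.79) and -0.87 for Ube2e3 (0.0083). None of these genes passed the test of a genotype difference that changes with stage.

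Ube2g1, whose product extends lysine-48 chains on cullin-RING substrates, followed the same order, at 17 and 11.5 FPKM in pachytene, 2.98 and 3.02 in diplotene and 1.68 and 1.23 in meiosis II of WT cells. Its first fall was -1.91 ± 0.26 (adjusted p = 0.0015), and its second, -0.71 ± 0.26 (0.048), was lost under 10 of 22 alternatives. Ube2t fell from 316 and 231 FPKM in WT diplotene to 118 and 73.5 in meiosis II (-1.52 ± 0.31, adjusted p = 0.0025), after 649.8 and 385 FPKM in pachytene, where the first step missed the threshold (-0.89 ± 0.31, 0.058). In null cells it fell from 298 and 243 to 42.2 and 51.4 FPKM (-2.51 ± 0.31, adjusted p = 0.00019), and the genotype difference in meiosis II, -0.98 ± 0.31, did not pass (0.072). Ube2b fell from pachytene to diplotene by 1.07 on the log2 scale in WT (± 0.32, adjusted p = 0.034) and by 1.27 in null cells (± 0.32, 0.017).

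Ube2v2, the inactive partner of UBE2N in DNA damage signalling, dipped in diplotene. It went from 44.7 and 13.1 FPKM in WT pachytene to 5.54 and 3.51 in diplotene and 20.1 and 15.9 in meiosis II (-2.22 ± 0.45, adjusted p = 0.0075, then 1.80 ± 0.45, 0.0084). The first change was -1.37 without WT pachytene replicate 1 and -3.07 without replicate 2, and it lost its call without WT diplotene replicate 2 (adjusted p = 0.057). The second lost its call without WT diplotene replicate 2 (0.061) or WT meiosis II replicate 1 (0.057). The null libraries were also lowest in diplotene, at 28.3 and 24.4, then 5.04 and 6.72, then 27.2 and 32.8 FPKM. Its paralogue Ube2v1 differed in direction: the only member called higher in diplotene than in pachytene, it rose in null cells from 30.7 and 28.0 to 98.7 and 106 FPKM (1.77 ± 0.41, adjusted p = 0.013), and in WT cells it was at 17.6 and 53.9 and then 62.1 and 73.7 FPKM (1.10 ± 0.41, 0.072). Ube2n rose from diplotene to meiosis II in WT (0.71 ± 0.23, adjusted p = 0.029) and in null cells (0.64 ± 0.23, 0.048).

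The members that rose into meiosis II were led by the X-linked pair. Ube2dnl rose from 0.264 and 0.368 FPKM to 17.4 and 17.6 FPKM in WT cells (3.82 ± 0.56, adjusted p = 0.00033) and Ube2a from 0.636 and 0.772 to 17.4 and 15.7 FPKM (3.37 ± 0.41, 0.00012). Both also rose in null cells, by 2.58 ± 0.56 (adjusted p = 0.0038) and 2.90 ± 0.41 (0.0004). Of the 407 X-linked genes tested, 89.7% rose in this step in WT cells, with a median of 2.03, and 90.4% in null cells, with a median of 2.05. Among autosomal genes 23.9% rose in WT cells, with a median of -0.01. WT Ube2b was highest in pachytene and lowest in meiosis II, whereas WT Ube2a was lowest in diplotene and highest in meiosis II.

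Ube2c rose into meiosis II from 39.0 and 39.5 to 77.2 and 111 FPKM in WT (1.22 ± 0.25, adjusted p = 0.0027) and from 53.2 and 55.6 to 147 and 150.3 FPKM in null cells (1.43 ± 0.25, 0.0012). Ube2d1 was at 0 and 0.0538 FPKM in WT diplotene and 1.70 and 1.14 FPKM in meiosis II (1.23 ± 0.21, adjusted p = 0.00084), while its null meiosis II libraries were at 0.794 and 0.195 FPKM (-0.72 ± 0.21 against WT, 0.055). Only its WT meiosis II libraries reached 1 FPKM, so Ube2d1 entered the test through the group where it was high. The p-values of its differences are therefore not independent of that filter. A value of 0 in this table can be a failed estimate, so Ube2d1 is listed at 0 there and no fold is given. Ube2g2 did not pass from diplotene to meiosis II in WT (0.14 ± 0.24, adjusted p = 0.67) and fell in null cells (-1.47 ± 0.24, 0.00085).

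By role, the WT counts stand beside shares of all tested genes of 9.08% higher and 17.4% lower in the first step and 26.1% higher and 18.9% lower in the second. Of the 8 tested UBE2D, UBE2E and UBE2W genes 3 fell from pachytene to diplotene, and from diplotene to meiosis II 2 rose and 3 fell. Ube2d1, which passed the expression minimum only through WT meiosis II, is 1 of the 2 that rose. Of 6 chain-building E2 genes (Ube2r2, Ube2g1, Ube2h, Ube2k, Ube2l3 and Ube2t) 1 fell in the first step and 2 in the second. Of Ube2m, Ube2f, Ube2l6 and Ube2z and the 4 tested large, UBE2Q or little-studied genes (Ube2o, Ube2q1, Ube2q2 and Ube2u) 0 passed in either step. Values of these last ran from 5.11 to 12.7 FPKM for Ube2o over all libraries.

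Genes that work with the E2 enzymes were counted in 8 lists. In pachytene and diplotene 0 genes of any list passed the genotype test, where 0.355% and 0.787% of all tested genes passed. Averaged over stages the counts called higher and lower in null cells were 1 and 1 of 11 modifier genes, 2 and 0 of 9 E1 genes, 2 and 0 of 8 E2 or E2-like genes of other names, 0 and 1 of 8 E3 partners of RAD6-type E2 enzymes, 0 and 2 of 16 APC/C genes, 0 and 0 of 6 E3 partners of UBE2N, 1 and 0 of 11 SUMO ligases and proteases, and 3 and 0 of 14 NEDD8 ligation factors and cullins. Of all tested genes 11.5% were called higher and 5.13% lower in that contrast. With same-numbered libraries joined over stages each of these counts was 0. Medians lay between -0.02 for the SUMO ligases and proteases and 0.37 for the E1 activating enzymes, beside 0.05 over all tested genes. In meiosis II 1 modifier gene was called higher and 1 lower in null cells, 1 E1 gene higher and 1 lower, 1 E2-like gene higher, 2 APC/C genes lower, and 0 of the other lists passed. Of all tested genes 6.14% were called higher and 4.35% lower in that contrast.

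Sumo3, encoding a SUMO modifier, was lower in both null libraries at every stage, at 59.4 and 55.5 against 39.8 and 33.2 FPKM in pachytene, 29.0 and 28.9 against 19.2 and 18.0 FPKM in diplotene and 17.7 and 24.6 against 7.96 and 8.51 FPKM in meiosis II (averaged -0.83 ± 0.12, adjusted p = 0.0022). Atg10, the E2-like enzyme of autophagy, was higher in both null libraries at every stage, at 2.63 and 1.83 against 4.75 and 3.75 FPKM in pachytene, 1.52 and 1.27 against 3.05 and 2.25 FPKM in diplotene and 0.817 and 0.808 against 3.27 and 2.95 FPKM in meiosis II (0.83 ± 0.12, adjusted p = 0.0025). Both calls held under every alternative that was run except the joining of stages (0.064 and 0.054). Cdc16, an APC/C subunit, was at 8.32 and 6.43 FPKM in WT and 2.75 and 1.81 FPKM in null meiosis II, with an averaged difference of -0.65 ± 0.14 (adjusted p = 0.012). Wac, which activates RNF20 and RNF40, was lower (-0.40 ± 0.11, adjusted p = 0.028), and Uba1 (0.68 ± 0.18, 0.027), the X-linked gene of the main ubiquitin E1, was higher. Pias3, a SUMO ligase (0.41 ± 0.09, adjusted p = 0.017), and Dcun1d5, a NEDD8 ligation factor (0.52 ± 0.12, 0.020), were higher. Uba1 lost its call under 11 of 22 alternatives, Wac under 10 of 22 and Dcun1d5 under 7 of 22. Pias3 lost its call under 3 of 21, among them quantile normalization (0.21, adjusted p = 0.17), and its difference was 0.85 with a pseudocount of 0.1. Cdc16 lost its call under 2 of 22, among them without both libraries that stood apart (-0.56, adjusted p = 0.057).

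Over the WT stages the same lists were counted beside the shares of all tested genes. From pachytene to diplotene, where 9.08% of all tested genes rose and 17.4% fell, the counts that rose and fell were 0 and 6 of 11 modifier genes, 1 and 4 of 9 E1 genes, 0 and 1 of 8 E2-like genes, 0 and 2 of 8 E3 partners of RAD6-type enzymes, 1 and 4 of 16 APC/C genes, 0 and 1 of 6 E3 partners of UBE2N, 2 and 1 of 11 SUMO genes and 0 and 3 of 14 NEDD8 genes. From diplotene to meiosis II, where 26.1% rose and 18.9% fell, they were 1 and 2, 2 and 5, 1 and 1, 1 and 3, 2 and 5, 0 and 5, 3 and 1, and 4 and 4 in the same order of lists. Sumo2 fell into meiosis II by 1.96 on the log2 scale (± 0.30, adjusted p = 0.0005), Anapc4 by 2.43 (± 0.26, 6.2e-05) and Rnf8, the E3 that works with UBE2N at DNA breaks and on the sex chromosomes, by 1.53 (± 0.26, 0.0008). Uba1 rose by 3.15 (± 0.30, adjusted p = 3.8e-05), from 0.384 and 0.494 to 14.7 and 9.34 FPKM, alongside the X-linked E2 genes. In the remaining lists the called gene with the smallest p also rose. These were Cul4b (3.33, limma adjusted p = 0.0002), Pias1 (1.38, 0.00021), Huwe1 (1.33, 0.00038) and Uevld (0.86, 0.0024). Uevld lost its call under quantile normalization (0.36, adjusted p = 0.12).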

How the data were processed

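RNA was measured in 12 libraries, 2 for each of 3 stages in WT and Cxxc1-null mice, each from 500 sorted cells by Smart-seq2, per the labels' protocols. The authors deposited 1 table of FPKM values per gene, and TopHat2 2.1.1, Cufflinks 2.2.1 and the mm9 build are named in the submitters' processing notes without their roles. How many fragments lie behind a library is unknown here, and no counting error can be given. The H3K4me3 libraries of the series (8) were not analysed here.

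Genes reaching 1 FPKM in 2 or more libraries were tested. Their log2(FPKM + 1) values entered a linear model (limma 3.58.1, R 4.3.3) that held a mean per group over all 12 libraries, a variance trend and Benjamini-Hochberg adjustment over all 12956 genes tested. The scale understates the change of low genes. A gene is called at an adjusted p under 0.05. The script was tested on simulated data. The alternatives were a pseudocount of 0.1, a minimum of 5 FPKM or none, quantile or common-median scaling, separate fits per comparison, no variance trend, short RNA genes left out, libraries left out, a replicate block and stages joined by replicate number.

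The members, role groups, partner lists, markers and the rule for named genes were chosen with earlier results of these data known. Library values are given for members called between genotypes, for the 5 largest called, non-overlapping WT stage changes in each direction, and for Ube2a, Ube2b, Ube2c, Ube2s, Ube2n and Ube2j1, chosen whatever their result. The values of 1 further member are not reported here, though counts over the members include it. Of each partner list, at most the called gene with the smallest p is named with a value in a comparison, and fuller values are given for Sumo3, Atg10, Cdc16 and Uba1. Ube2t, Ube2l3, Ube2u, Ube2m and Ube2v1 were given further values after those were seen, and Ube2dnl was added to its role group after the table was seen. Chromosomes and upstream sequences came from RefSeq tables of GRCm38.p6, matched by symbol or synonym; a different build from that of the FPKM table.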

Additional observations from a re-analysis of the deposited data

How the results depend on the processing

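In meiosis II the genotype count of 2 E2 genes was 5 under quantile normalization, 0 in a fit on those libraries alone (219 genes of all tested passed) and 1 to 4 with each library left out, 1 without WT or null meiosis II replicate 2. The averaged count of 5 was 0 with stages joined by replicate number (434 genes of all tested passed) and 2 to 7 with each library left out, 2 without null pachytene or null meiosis II replicate 2. The diplotene count of 0 was 0 to 1, with Ube2a called without null diplotene replicate 1, and the pachytene and interaction counts were 0 with each library left out. From pachytene to diplotene the WT count of 6 was 0 in a separate fit, 11 without both libraries that stood apart and 4 to 11 with each library left out, and the null count of 7 was 11 in a separate fit and 2 to 9. From diplotene to meiosis II the WT count of 11 was 7 to 11 and the null count of 8 was 6 to 11. Direction reversed for uncalled averaged differences alone: Ube2b ranged from -0.22 to 0.11 with each library left out, positive without WT pachytene replicate 1 (0.11) or WT diplotene replicate 1 (0.037). Ube2s ranged from -0.26 to 0.088, positive without WT pachytene replicate 2 (0.088), null diplotene replicate 1 (0.0029), WT meiosis II replicate 2 (0.0082) or null meiosis II replicate 1 (0.068), and was 0.0005 without both libraries that stood apart. Ube2j1 ranged from -0.023, without null meiosis II replicate 2, to 0.16. Of 744 values of 34 named gene results 643 kept direction and side of the threshold, 92 lost a call and 1 gained it. The replicate numbers are not shown to pair the libraries: over 15 pairs of groups the same-numbered deviations correlated between -0.25 and 0.42, 11 of them over 0.1 and 1 under -0.1. With a replicate block the meiosis II count was 5 (Ube2cbp, Ube2e2, Ube2e3, Ube2g2 and Ube2t), the averaged count 5, and the WT stage counts 8 and 11. For most alternatives the calls over all tested genes are not given beside the E2 counts. Changes in those counts therefore cannot be told apart from changes in the calls over all genes. Separate fits give no averaged or interaction value. The cause of these changes was not tested. How far the unknown number of fragments limits low values was not measured.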

Other observations

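Replicate 2 was above replicate 1 in all 6 groups for 4 E2 genes, Ube2c, Ube2j2, Ube2m and Ube2s (11.8% of 34), where 4.18% of all tested genes had this pattern. The reverse was found for 0 members and 5.94% of all tested genes. Ube2m, the NEDD8 E2 gene, differed most, by 1.20 on the log2 scale averaged over groups, and Ube2s by 0.65. The labels do not say what the replicate number stands for.

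A pseudocount of 0.1 in place of 1 makes the rise of Ube2dnl into meiosis II larger. In WT cells its change from diplotene was then 5.42 on the log2 scale, and its averaged genotype difference was 1.82.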
